A study of Mus musculus with 27 samples.

Results

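The chromatin-to-cytoplasm shift between mouse embryonic stem cells and cortical neurons is the difference, gene by gene, between 2 ratios of polyadenylated RNA. For each gene the log2 ratio of its chromatin level to its cytoplasm level in embryonic stem cells (mESC) was subtracted from the same ratio in primary cortical neurons (mCtx). A positive shift means that the transcript lay more toward chromatin in mCtx than in mESC, and a negative shift means that it lay more toward cytoplasm. The members are the chromatin and cytoplasm libraries of these cell types, 12 of the 27 libraries of the series, with 3 biological replicates in each of the 4 groups. The mESC were the E14 line, a single line grown on gelatin with the cytokine LIF, which keeps such cells pluripotent. The mCtx were neurons of the mouse cortex plated on poly-L-lysine and cultured for 5 days, and no genetic change or drug is named for any of the 4 groups. RNA over 200 nt was kept, polyadenylated RNA was selected, and both ends of the strand-marked fragments were read over 100 bp. The other libraries are the nucleoplasm of both cell types and all fractions of a neural progenitor line (mNPC) grown with EGF and FGF, of which the mNPC chromatin and cytoplasm serve below as an intermediate step.

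A transcript is made, capped, spliced and polyadenylated at the gene while it is still tied to chromatin, and the finished mRNA is released and exported to the cytoplasm for translation. Transcripts that keep introns, or that work in the nucleus, tend to stay behind, while mRNAs of short housekeeping genes accumulate in the cytoplasm. In neural differentiation the splicing repressor PTBP1 gives way to its paralog PTBP2, and neuronal transcripts whose splicing PTBP1 represses in other cells are then completed.

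Library totals of the 12 libraries ran from 13496984 to 24537526 counts. Pluripotency markers summed to between 8815 and 12210 CPM (counts divided by the scaled size of the library) in the mESC libraries and to between 230 and 352 CPM in mCtx, where 26 of 37 of them were under 1 CPM. Cortical neuron markers summed to between 10450 and 16860 CPM in mCtx and to between 610 and 745 CPM in mESC, and all 32 were above 1 CPM in mCtx. The mCtx cultures also held neural progenitor markers (1680 to 2177 CPM in sum, against 262 to 353 CPM in mESC). Inhibitory neuron markers summed to 415 to 747 CPM in mCtx and 11.8 to 53.1 CPM in mESC. Astrocyte markers summed to 317 to 367 CPM in mCtx and 116 to 197 CPM in mESC. Microglia markers under 1 CPM numbered 11 of 15 in either mESC fraction, 12 in mCtx chromatin and 4 in mCtx cytoplasm, and their median log2 difference in cytoplasm, mCtx minus mESC, was 4.3. Their summed level of 61.9 to 111 CPM in mCtx and 97.3 to 152 CPM in mESC includes Cx3cr1, whose region overlaps other genes. Fewer cells of a type and less RNA per cell cannot be told apart in such bulk libraries. All levels are relative to the RNA of their own fraction and give no amount per cell. The mESC libraries numbered 1 stood apart from the others of their group. Log CPM correlated at 0.972 to 0.984 between library 1 and the others in mESC chromatin and cytoplasm, and at 0.988 and 0.991 between libraries 2 and 3. The shift counts below were 2879 and 4389 without both of those libraries.

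Of 18226 genes tested, 2860 (15.7%) had a positive shift and 4539 (24.9%) a negative one. A gene was called when its adjusted p in edgeR's quasi-likelihood test was under 0.05 after Benjamini-Hochberg adjustment over all genes and its shift was at least 1 on the log2 scale. All adjusted p values given below come from this test, without pairing of libraries unless stated. The median shift of all genes tested was -0.30 on the log2 scale, and -0.56 when libraries were scaled by their totals alone, so the balance between the directions depends on the scaling. With library totals the split was 2169 positive and 5351 negative. Among the 8985 genes with a mean of at least 10.0 CPM in chromatin or cytoplasm of both cell types the directions were close to even, at 2113 positive (23.5%) and 1947 negative (21.7%). In 4187 genes (23.0%) all mCtx ratios lay above all mESC ratios whichever libraries were paired, and in 5822 (31.9%) all lay below. For these ratios 0.25 CPM was added to each level. Of the genes tested, 1559 had 3 or fewer counts in both fractions of a cell type, where the added value holds the ratio near 0. Such genes were not left out, so part of this separation can come from the added value.

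**Figure D1:**
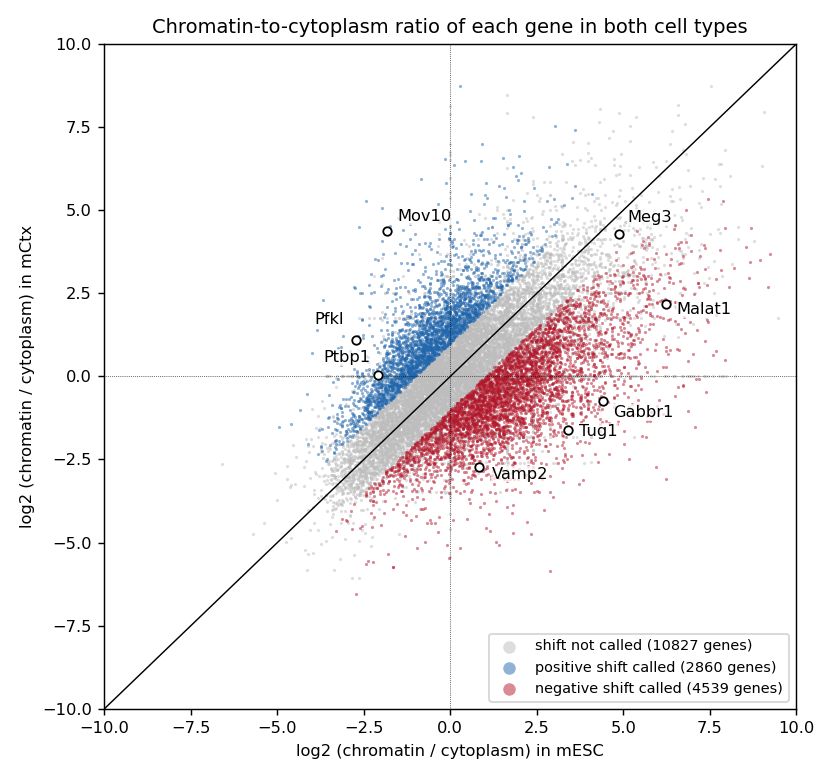
Log2 ratio of chromatin to cytoplasm of each of 18226 genes in mESC (horizontal axis) and in mCtx (vertical axis), with the diagonal of equal ratios. Blue points are the 2860 genes with a called positive shift, red points the 4539 with a called negative shift, and grey points the rest; open circles mark genes described in the text.

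Most shifted genes were called on a side of 0 in one cell type and on neither side in the other. In mESC 56.0% of genes were called between chromatin and cytoplasm, 34.4% higher in chromatin and 21.6% lower, and in mCtx 50.6%, 26.2% higher and 24.4% lower. Of the genes with a negative shift, 1838 (40.5%) were called higher in chromatin in mESC and not called in either direction in mCtx. Another 1059 (23.3%) were not called in mESC and were higher in cytoplasm in mCtx. Of the positive shifts, 1173 (41.0%) were not called in mESC and were higher in chromatin in mCtx, and 818 (28.6%) were higher in cytoplasm in mESC and not called in mCtx. A full change of side, with opposite calls in the 2 cell types, was seen in 617 genes (3.39% of those tested). In 473 of them the transcript was higher in chromatin in mESC and higher in cytoplasm in mCtx, and in 144 the reverse held. With 2 TPM-based alternatives these opposite calls numbered 172 and 357, and they were 331 when every group had to reach 1 CPM.

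In most called genes the cytoplasm libraries differed more between the cell types than the chromatin libraries. The difference was larger in cytoplasm than in chromatin in 70.8% of the positive and 70.9% of the negative shifts. This share was not computed over all genes tested, so it has no background beside it. Genes with a positive shift had a median log2 difference, mCtx minus mESC, of 0.07 in chromatin and -1.64 in cytoplasm. Genes with a negative shift had medians of 0.05 in chromatin and 2.23 in cytoplasm. These medians say that chromatin differences lay on both sides of 0, not that they were small: of all genes tested 61.5% were called between the chromatin fractions of the cell types (29.3% higher and 32.3% lower in mCtx) and 67.9% between their cytoplasms (35.7% and 32.2%).

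Mov10 (ENSMUSG00000002227, mm10 chromosome 3, 104794836 to 104818563, - strand), an RNA helicase of the small RNA silencing machinery, had the largest positive shift among the genes that met the naming rule. Its chromatin level was 72.5, 72.3 and 77.6 CPM in the mESC libraries and 88.4, 87.5 and 88.3 CPM in mCtx. Its cytoplasm level was 227, 277 and 291 CPM in mESC and 3.89, 4.18 and 4.65 CPM in mCtx. All mCtx cytoplasm libraries were far below all mESC ones, while the chromatin levels were slightly higher in mCtx, also without overlap. The shift was 6.21 ± 0.20 (SE, n = 3 per group; adjusted p = 6.3e-18), and it lay between 5.38 and 6.29 over 25 alternative settings.

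Pfkl (chromosome 10, 77986947 to 78010083, - strand), the liver-type phosphofructokinase of glycolysis, stood at 49.9, 84.3 and 137 CPM in mESC chromatin and 396, 663 and 746 CPM in mESC cytoplasm. The mCtx levels were 90.9, 105 and 101 CPM in chromatin and 41.1, 49.2 and 49.1 CPM in cytoplasm. The mCtx cytoplasm libraries were the lowest of the 4 groups, and the chromatin ranges of the cell types overlapped. The shift was 3.82 ± 0.39 (SE; adjusted p = 7.5e-09). Anxa6, a calcium-dependent phospholipid-binding annexin, fell in cytoplasm from 206, 212 and 211 CPM in mESC to 16.7, 17.5 and 14.2 CPM in mCtx. In chromatin it stood at 57.1 to 61.3 CPM in mESC and 66.5 to 70.3 CPM in mCtx, so the groups were apart in both fractions but by far less in chromatin. Its shift was 3.92 ± 0.18 (SE; adjusted p = 5.4e-15).

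Amt, the aminomethyltransferase of the glycine cleavage system, rose in chromatin and fell in cytoplasm. Its means in mESC were 21.7 ± 2.3 CPM in chromatin and 65.8 ± 11 CPM in cytoplasm, and in mCtx 100.0 ± 1.2 and 17.9 ± 2.0 CPM (SD, n = 3), for a shift of 4.08 ± 0.20 (SE). Crabp2, a retinoic acid binding protein, had a shift of 5.59 ± 0.42 at low levels, with no group above a mean of 10.4 CPM. Arhgef1, a guanine nucleotide exchange factor, had a shift of 4.05 ± 0.36, and Syne4, a nesprin of the nuclear envelope, 4.0 ± 0.35. Syne4 held 0.38 ± 0.17 CPM in mCtx cytoplasm (SD, n = 3), and its shift was 1.86 in log2(TPM + 1). Ssh3, a cofilin phosphatase, was on the chromatin side in both cell types and further so in mCtx, with log2 ratios of 1.95 and 5.92. Las1l, a ribosome biogenesis factor, and Mars, the methionyl-tRNA synthetase, had shifts of 3.82 ± 0.28 and 3.70 ± 0.20. Ubap1l had a shift of 3.75 ± 0.27. Col7a1, a collagen chain, had 3.81 ± 0.51 in counts but 0.07 in log2(TPM + 1); its mCtx cytoplasm held 0.12 ± 0.06 CPM (SD, n = 3).

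**Figure D2:**
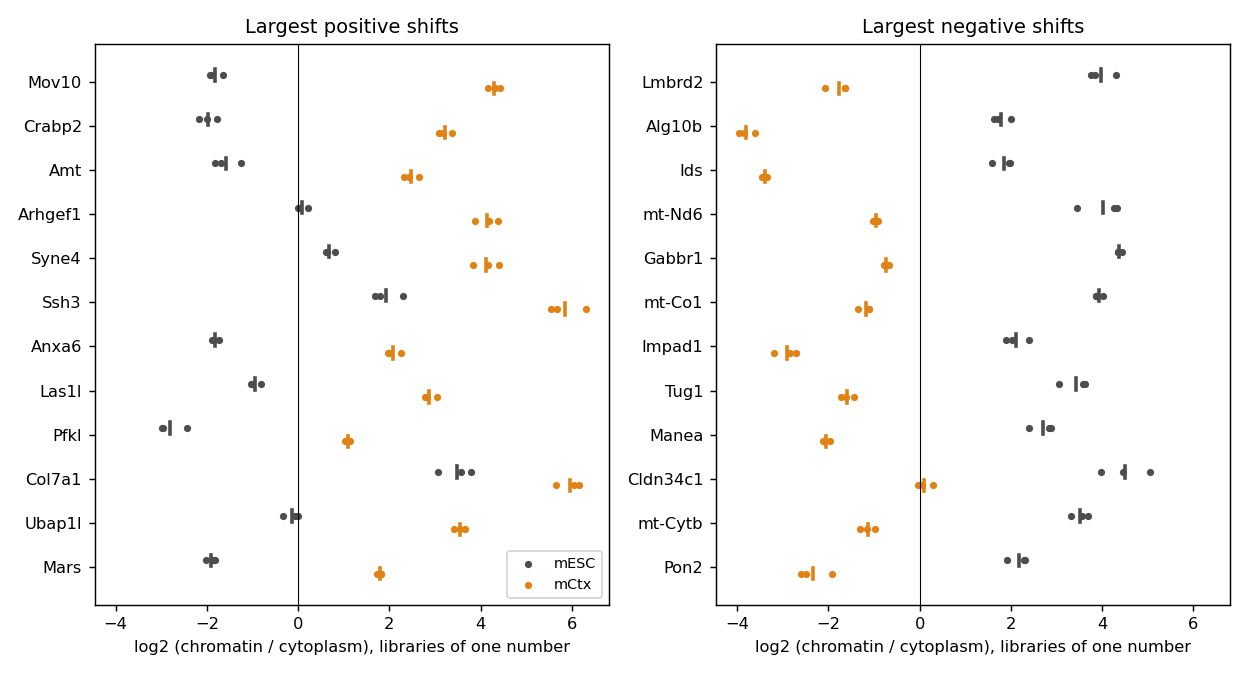
Log2 ratio of chromatin to cytoplasm (horizontal axis) for the 12 genes with the largest positive shift (left) and the 12 with the largest negative shift (right) under the naming rule. Each point is a chromatin library over the cytoplasm library of the same replicate number, with 0.25 CPM added to each level. Points are grey for mESC and orange for mCtx, and bars are means of 3. The naming rule took only genes whose ratios did not overlap between the cell types, so the separation of the points follows from it.

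Among the largest negative shifts were genes of glycan, lysosomal and sulfate metabolism. Ids (ENSMUSG00000035847, chromosome X, 70343069 to 70365084, - strand), the lysosomal iduronate sulfatase, stood at 28.4, 27.7 and 25.6 CPM in mESC chromatin and 9.28, 6.83 and 6.41 CPM in mESC cytoplasm. The mCtx levels were 83.7, 71.7 and 71.7 CPM in chromatin and 853, 752 and 793 CPM in cytoplasm. Both fractions were higher in mCtx without overlap, and the cytoplasm by far more. The shift was -5.27 ± 0.19 (SE; adjusted p = 4.7e-17).

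Alg10b, a glucosyltransferase that completes the precursor of N-linked glycans, moved in opposite directions in the 2 fractions. It was at 44.1, 46.2 and 42.5 CPM in mESC chromatin and 7.17, 6.59 and 7.74 CPM in mCtx chromatin. In cytoplasm it was at 13.3, 11.3 and 13.6 CPM in mESC and 115, 82.7 and 115 CPM in mCtx. No group overlapped another within a fraction, and the shift was -5.66 ± 0.21 (SE; adjusted p = 7.7e-17). Manea, an endomannosidase of the Golgi, had a shift of -4.88 ± 0.24, Impad1, a Golgi phosphatase, -5.06 ± 0.24, and Lmbrd2, a membrane protein, -5.89 ± 0.29. Pon2, a membrane-bound lactonase, had -4.65 ± 0.48 and Cldn34c1, a claudin family gene, -4.84 ± 0.47. In log2(TPM + 1) these 2 shifts were -2.49 and -1.82. Cldn34c1 held 0.38 ± 0.33 CPM in mESC cytoplasm (SD, n = 3).

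Tug1 (ENSMUSG00000056579, chromosome 11, 3639794 to 3648812, - strand), a long noncoding RNA, was also among the 12 largest negative shifts. Its chromatin level fell from 324, 327 and 319 CPM in mESC to 91.2, 83.1 and 85.5 CPM in mCtx. Its cytoplasm level rose from 38.8, 26.9 and 25.5 CPM to 301, 225 and 263 CPM. The groups did not overlap in either fraction, and the transcript changed sides, with a log2 ratio of 3.41 in mESC and -1.6 in mCtx. The shift was -5.02 ± 0.22 (SE; adjusted p = 5.2e-15).

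Gabbr1, Ptbp1, Ptbp2 and Meg3 are genes the study itself turned on, which makes none of their directions independent evidence. Gabbr1 (ENSMUSG00000024462, chromosome 17, 37045966 to 37075067, + strand) encodes a subunit of the GABA-B receptor and has an exon that PTBP1 represses. Its chromatin levels were near each other, at 297, 298 and 371 CPM in mESC and 353, 382 and 371 CPM in mCtx. Its cytoplasm levels were 14.4, 14.3 and 17.0 CPM in mESC and 604, 609 and 625 CPM in mCtx. The chromatin ranges overlapped and the cytoplasm ranges were far apart, so that the shift of -5.14 ± 0.24 (SE; adjusted p = 8.1e-15) came with a cytoplasm difference of 5.33 and a chromatin difference of 0.19 on the log2 scale. By way of the progenitors the shift was -3.24 from mESC to mNPC and -1.90 from mNPC to mCtx, both called.

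Ptbp1 (ENSMUSG00000006498, chromosome 10, 79854427 to 79864771, + strand), the repressor itself, went the other way. Its chromatin level was 214, 255 and 293 CPM in mESC and 105, 112 and 113 CPM in mCtx. Its cytoplasm level was 726, 1194 and 1298 CPM in mESC and 97.4, 118 and 108 CPM in mCtx. All mCtx libraries were lower than all mESC libraries in both fractions, with the larger drop in cytoplasm, and the shift was 2.11 ± 0.26 (SE; adjusted p = 2.1e-07). Ptbp2 (ENSMUSG00000028134, chromosome 3, 119718742 to 119783388, - strand), the neural paralog, stood at 132, 140 and 97.2 CPM in mESC chromatin and 21, 29.8 and 32.5 CPM in mESC cytoplasm. In mCtx it stood at 342, 325 and 348 CPM in chromatin and 178, 162 and 170 CPM in cytoplasm. Both fractions were higher in mCtx, the cytoplasm by more, and the shift was -1.15 ± 0.25 (SE; adjusted p = 3.3e-04). This call was lost without both mESC libraries numbered 1, at -0.93, and in log2(TPM + 1), at -0.54.

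Meg3 (ENSMUSG00000021268, chromosome 12, 109541001 to 109571726, + strand), an imprinted long noncoding RNA that holds the microRNA loci Mir1906-1 and Mir770 on its strand, rose in both fractions without a called shift. Its chromatin level was 928, 1478 and 1724 CPM in mESC and 8881, 8737 and 8678 CPM in mCtx. Its cytoplasm level was 17.0, 57.6 and 65.1 CPM in mESC and 400, 379 and 570 CPM in mCtx. The first mESC library was the lowest of its group in both fractions, and the ratios of the cell types overlapped. The shift was -0.60 ± 0.42 (SE, adjusted p = 0.24), with a range of -0.94 to 0.19 over 25 alternatives. With the fractions paired by replicate number in the same test it was -0.67 (adjusted p = 0.034), still below the size needed for a call.

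**Figure D3:**
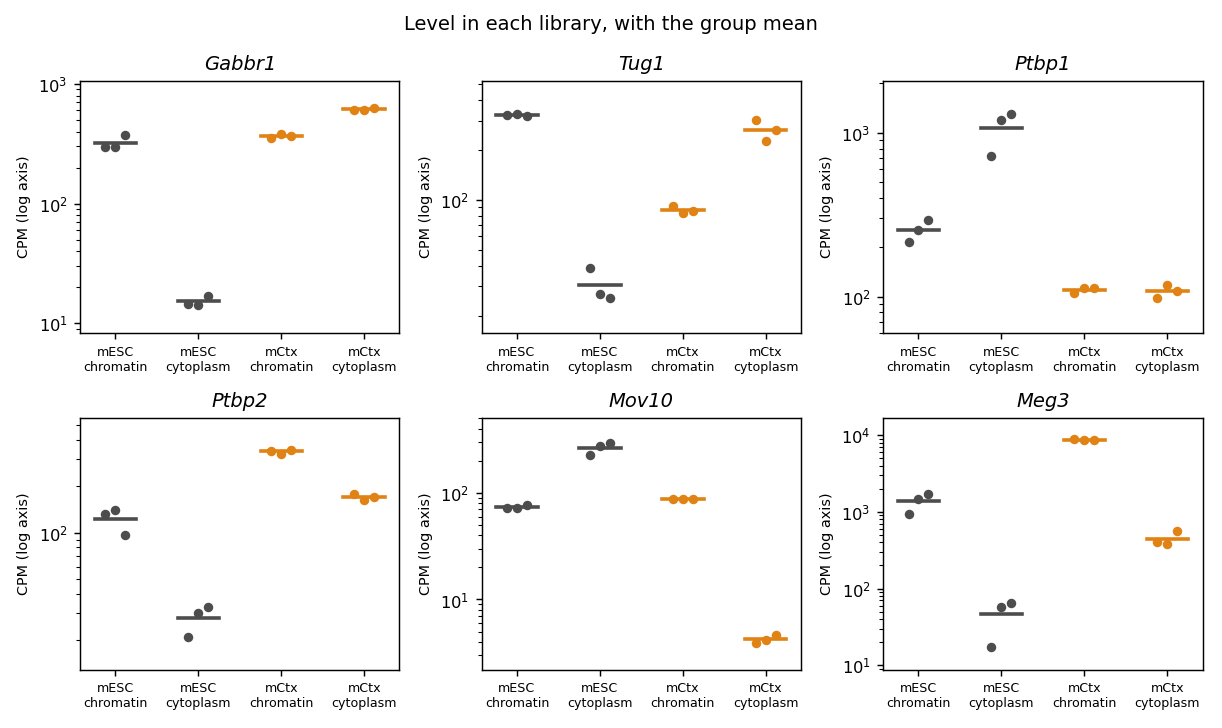
Level in CPM on a log axis (vertical) of 6 genes in each library of mESC (grey) and mCtx (orange) chromatin and cytoplasm (horizontal), with bars at the group means of 3. Gabbr1, Tug1 and Ptbp2 rise in mCtx cytoplasm relative to chromatin, Ptbp1 and Mov10 fall there, and Meg3 keeps chromatin above cytoplasm in both cell types.

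The list of 7 transcripts with PTBP1-repressed splicing had 7 of 7 called negative against a background of 24.9% and a median shift of -2.54 against -0.30 for all genes. It had 6 of 7 called without both mESC libraries numbered 1 (median -2.61) and in log2(TPM + 1) (median -1.26). The list includes Gabbr1 and Ptbp2 and was chosen with results of these libraries known, so it is not independent evidence of its direction. Vamp2, a SNARE protein of synaptic vesicles, stood at 36.7, 37.2 and 46.7 CPM in mESC chromatin and 19.1, 22.7 and 25.3 CPM in mESC cytoplasm. Its mCtx levels were 133, 141 and 132 CPM in chromatin and 850.0, 930.2 and 897 CPM in cytoplasm. It rose in both fractions without overlap, in cytoplasm by far more, and its shift was -3.57 ± 0.19 (SE; adjusted p = 1.3e-13). Sv2a, a synaptic vesicle glycoprotein, had -2.54 ± 0.31, Dlg4, the postsynaptic scaffold PSD-95, -1.87 ± 0.35, and Kif5a, a neuronal kinesin, -1.57 ± 0.20.

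The 2 steps through the progenitors differed among these transcripts. From mESC to mNPC the shift of Sv2a was -1.72, which was called, while Vamp2 had -0.91, Dlg4 -0.67, Ptbp2 0.04 and Kif5a 0.06, none of them called. From mNPC to mCtx it was -2.66 for Vamp2, -1.63 for Kif5a, -1.2 for Dlg4 and -1.19 for Ptbp2, all called. These steps share libraries with the whole shift and are given side by side only.

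From 3 to 5 exons upward the median shift rose with the number of exons of the gene, taken as the largest exon count of any of its transcripts in the GENCODE M21 annotation. Among protein-coding genes of at least 10.0 CPM in both cell types the median shift was -0.24 for 69 genes of 1 exon, -0.45 for 175 genes of 2, -0.48 for 1468 genes of 3 to 5 exons and -0.13 for 2725 genes of 6 to 10. It was 0.35 for 1880 genes of 11 to 15 exons, 0.65 for 1012 genes of 16 to 20, 0.88 for 977 genes of 21 to 30 and 1.19 for 470 genes of over 30. The share with a called positive shift went from 6.34% at 3 to 5 exons to 56.8% at over 30, and that with a called negative shift from 29.8% to 9.15%. With library totals the medians of these classes ran from -0.74 at 3 to 5 exons to 0.93 at over 30, and in log2(TPM + 1) from -0.37 to 1.08.

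Both cell types had higher chromatin ratios in genes of more exons, and mCtx had the steeper rise. In mESC the median log2 ratio went from -1.04 at 3 to 5 exons to 0.68 at over 30, and in mCtx from -1.45 to 1.88. Across these 8776 genes, which are not independent replicates and share the 12 libraries, Spearman's rank correlation between the ratio and the exon number was 0.336 in mESC and 0.652 in mCtx. For the shift it was 0.373. Among these genes the shift had little relation to the genomic span (rank correlation 0.028) or to the spliced length (rank correlation 0.032). The ratios within each cell type did, at 0.340 to 0.363. Over all protein-coding genes tested, the 900 with a span of over 200 kb had a median shift of -0.84, and 0.08 in log2(TPM + 1). Of the 8776 genes, the median number of exons was 16 in those with a positive shift, 8 in those with a negative shift and 10 in all. Introns lie inside the counted region of the count table, so reads of unspliced RNA are part of each level.

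**Figure D4:**
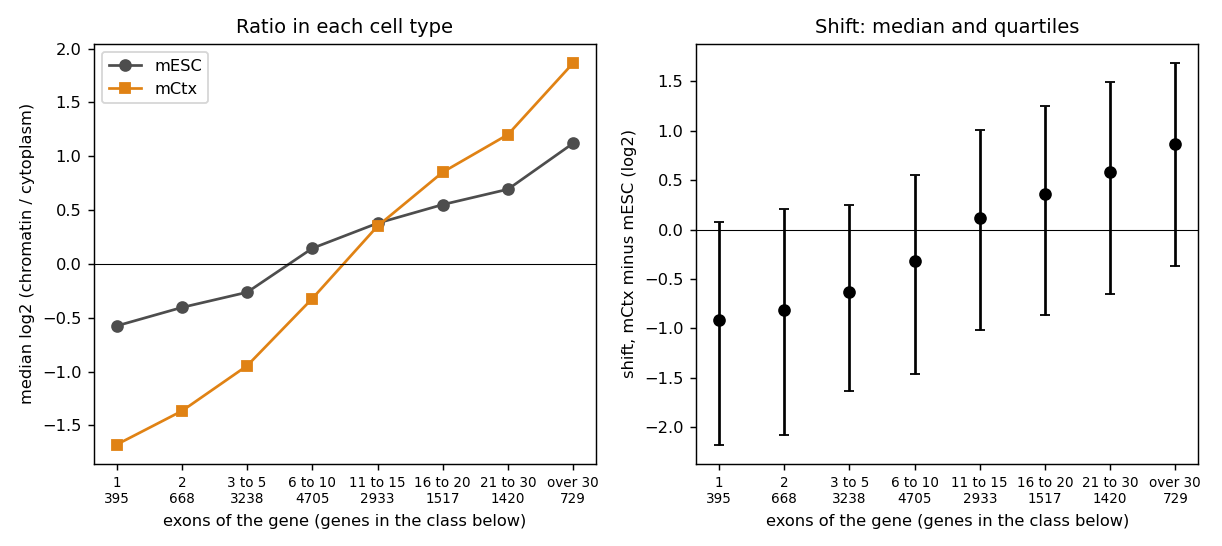
Protein-coding genes tested, in classes by the number of exons (horizontal axis, with the number of genes in each class under it). Left, the median log2 ratio of chromatin to cytoplasm in mESC (grey) and mCtx (orange); right, the median shift with bars at the quartiles, which goes from -0.91 at 1 exon to 0.87 at over 30 exons.

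Of 46 core spliceosome components 29 were positive and none negative (median 1.42, background 15.7% positive and 24.9% negative). All 46 reached 10.0 CPM in a fraction of both cell types, where 23.5% of genes were positive and 21.7% negative. Snrnp200, the helicase of the U5 particle, fell in cytoplasm from 629 ± 48.8 CPM in mESC to 57.4 ± 9.3 CPM in mCtx (SD, n = 3). In chromatin it was at 197 ± 12.9 and 126 ± 7.9 CPM, a difference that was not called, and the shift was 2.81 ± 0.29 (SE; adjusted p = 1.0e-08). Snrnp70, a protein of the U1 particle and the most abundant of the list, rose in chromatin and fell in cytoplasm, with a shift of 2.47 ± 0.27.

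Histone modifiers and chromatin remodelers were positive in 35 of 70 and negative in 3 (median 1.05). Of the 70, 69 reached 10.0 CPM in a fraction of both cell types, where 23.5% of genes were positive and 21.7% negative. Hdac1, a histone deacetylase, had a shift of 2.81 ± 0.24, with 227, 320 and 358 CPM in mESC cytoplasm and 45.9, 55.4 and 50.9 CPM in mCtx cytoplasm. Its chromatin levels were 84.7 to 132 CPM in mESC and 125 to 128 CPM in mCtx, so only the cytoplasm ranges were apart. Chd4, a remodeler of the NuRD complex, had a shift of 2.55 ± 0.31. The 3 negative members were Kmt2e, a SET domain protein, at -1.13 ± 0.20, Suv39h1, a histone H3 methyltransferase, at -1.06 ± 0.18 and Chd3, another NuRD remodeler, at -1.03 ± 0.23; the last 2 were named after their values were seen, and Kmt2e was -0.55 in log2(TPM + 1).

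Proteasome subunits were positive in 14 of 31 and negative in none (median 0.96), led by Psmd2, a subunit of the regulatory particle, at 2.29 ± 0.30. The background was 15.7% positive and 24.9% negative, or 23.5% and 21.7% among genes of at least 10.0 CPM in both cell types. Translation initiation and elongation factors were positive in 20 of 45 and negative in 4 (median 0.77). Eif3b, a core subunit of the factor that recruits the small ribosomal subunit, had a shift of 2.47 ± 0.33. Eif4a2, a helicase of cap-dependent initiation whose introns hold small nucleolar RNAs on the same strand, had -1.63 ± 0.19. The other negative members were Eif1 at -1.46, Eif3j1 at -1.27 and Eef1e1 at -1.07, named after their values were seen. Eef1a1, the most abundant, had 0.88 ± 0.21 (adjusted p = 0.0011) and did not reach the size needed for a call.

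Proliferation genes were positive in 21 of 35 and negative in 1 (median 1.22). Of the 35, 33 reached 10.0 CPM in a fraction of both cell types, where 23.5% of genes were positive and 21.7% negative. Plk1, a mitotic kinase, stood at 200.4, 292 and 295 CPM in mESC cytoplasm and 19.5, 22.7 and 20.7 CPM in mCtx cytoplasm. In chromatin it stood at 34.2 to 47.1 CPM in mESC and 21.7 to 24.3 CPM in mCtx. Both fractions were lower in mCtx without overlap, the cytoplasm by more, and the shift was 2.80 ± 0.24 (SE; adjusted p = 3.2e-10). Top2a, the mitotic topoisomerase, had 1.64 ± 0.23, and the negative member was Ccne2, a cyclin of S phase entry, at -1.92 ± 0.43, named after its value was seen. Ccne2 did not reach 10.0 CPM in a fraction of both cell types.

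Groups of related genes that were put together after their values had been seen extend this description and carry no test. Of 58 ribosome biogenesis factors, which make and trim ribosomal RNA in the nucleolus, 46 had a positive shift and none a negative one (median 1.88). All 58 reached 10.0 CPM in a fraction of both cell types, where 23.5% of genes were positive and 21.7% negative. Heatr1, a component of the small subunit processome, fell in cytoplasm from 353 ± 76.1 CPM in mESC to 14.0 ± 1.4 CPM in mCtx (SD, n = 3), and in chromatin from 166 ± 17.1 to 70.5 ± 3.1 CPM. Its shift was 3.42 ± 0.25 and that of Utp20, another component, 3.13 ± 0.26. Of 20 cytosolic aminoacyl-tRNA synthetases, which charge tRNAs with amino acids, 19 were positive (median 2.14), all but Dars, the aspartyl enzyme, at 0.44. The counts of both groups were 46 and 19 in log2(TPM + 1) as well.

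Of 78 cytosolic ribosomal protein genes none was positive and 14 were negative (median -0.54), a share below the 24.9% of all genes. All 78 reached 10.0 CPM in a fraction of both cell types, where 21.7% of genes were negative and 23.5% positive. The negative count was 24 with library totals and 21 in log2(TPM + 1). Rps24, a protein of the small subunit, stood in cytoplasm at 1336, 1215 and 1315 CPM in mESC and 1207, 1321 and 1127 CPM in mCtx. Its chromatin level fell from 434, 444 and 489 CPM to 118, 124 and 123 CPM. The cytoplasm ranges overlapped and the chromatin ranges did not, and the shift was -1.83 ± 0.19 (SE; adjusted p = 8.2e-09). Rpsa, which holds small nucleolar RNA genes on its strand, had -0.51 ± 0.21 and was not called. The list had a median of -1.53 from mESC to mNPC and of 1.03 from mNPC to mCtx, so that the steps lay on either side of 0.

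Nuclear-encoded respiratory chain genes were called in both directions, with 10 of 76 positive and 10 negative (median -0.37). Both shares were below the background of 15.7% positive and 24.9% negative. They were also below the 23.5% and 21.7% of genes of at least 10.0 CPM in both cell types. Sdha, the flavoprotein of complex II, had a shift of 2.07 ± 0.17 and Atp5b, the catalytic subunit of ATP synthase, 1.31 ± 0.19. Ndufa12, a small subunit of complex I, had -1.46 ± 0.19, and -0.51 in log2(TPM + 1), where it was not called. Genes known for detained introns, among them SR proteins and CLK kinases, were positive in 7 of 40 and negative in 2 (median 0.33). The positive share was near the 15.7% of all genes tested. With library totals 6 were positive and 5 negative, with a median of 0.07. Of the 39 members of at least 10.0 CPM in both cell types, 7 were positive and 1 negative. Among all genes of that level the shares were 23.5% and 21.7%, so both shares of the list were below them. Srrm1, a splicing coactivator, had 2.12 ± 0.27. The negative members were Rsrp1, an arginine- and serine-rich protein, at -1.22 ± 0.28 (-0.61 in log2(TPM + 1), where it was not called), and Srsf12, an SR protein, at -1.38 ± 0.26, named after its value was seen. Srsf12 did not reach 10.0 CPM in a fraction of both cell types.

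**Figure D5:**
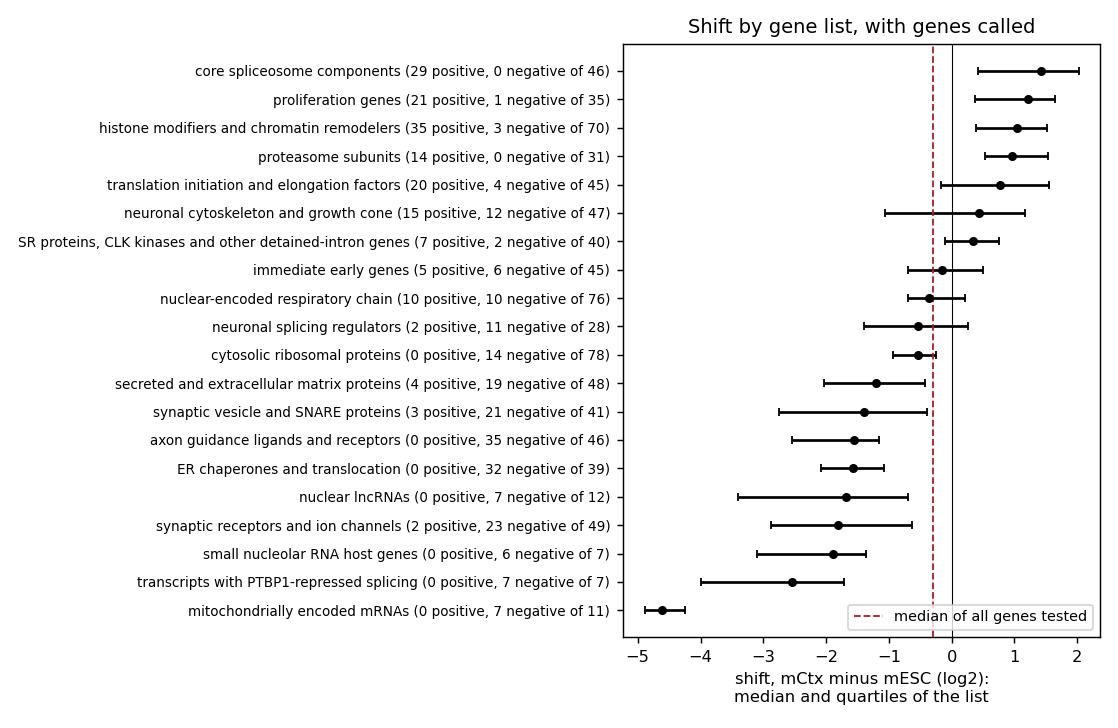
Shift of the gene lists with at least 5 tested members (vertical axis, with the counts of members called), on the log2 scale (horizontal axis). Points are list medians, bars the quartiles of the members, and the dashed line the median of all genes tested at -0.30.

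Of 39 genes for ER chaperones and translocation 32 were negative (background 24.9%) and none positive (median -1.56). Ssr3, a subunit of the translocon-associated complex, stood at 89.5, 95.5 and 103 CPM in mESC chromatin and 84.7, 93.6 and 97.9 CPM in mESC cytoplasm. Its mCtx levels were 44.1, 40.7 and 36.9 CPM in chromatin and at 400, 334 and 300 CPM in cytoplasm. The fractions overlapped in mESC and were far apart in mCtx, and the shift was -3.15 ± 0.20 (SE; adjusted p = 1.8e-12). Calr, the lumenal chaperone calreticulin and the most abundant of the list, had a shift of -1.22 ± 0.29, which was -0.99 and not called without the third mESC chromatin library. The list median was -1.5 from mESC to mNPC and -0.11 from mNPC to mCtx.

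Secreted and extracellular matrix genes were negative in 19 of 48 and positive in 4 (median -1.21), with 14 negative and 7 positive in log2(TPM + 1). The background in counts, for these and the groups below, was 24.9% negative and 15.7% positive. Sparc, a matrix-binding glycoprotein, had -2.94 ± 0.34 and Agrn, the proteoglycan agrin, -1.43 ± 0.27. The positive members were the collagen chains Col7a1, Col11a2 (4.65 ± 0.64) and Col5a1 (1.52 ± 0.28) and the protease inhibitor Timp1 (1.27 ± 0.42), of which the last 3 were named after their values were seen. Of these 4, 2 reached 10.0 CPM in a fraction of both cell types, and Col11a2 did not. Of groups put together after values had been seen, 31 of 38 lysosomal genes were negative and none positive (median -1.85). Lamp2, a lysosomal membrane protein, had -4.09 ± 0.45. Of 41 genes for the synthesis of GPI anchors and N-linked glycans, which takes place in the ER and Golgi membranes, 33 were negative (median -1.86) and 1, Alg13, positive at 1.55.

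Symbol families of membrane proteins were gathered after their values had been seen. Of 213 genes named Tmem, for transmembrane protein, 111 were negative and 3 positive (median -1.38, and -0.85 in log2(TPM + 1)). Of 276 genes named Slc, for solute carriers of the cell and organelle membranes, 147 were negative and 8 positive (median -1.53, and -1.0 in log2(TPM + 1)). The 45 genes named Slc25, for carriers of the mitochondrial inner membrane, had 11 negative and 7 positive members, near the background of 24.9% and 15.7%. Their median was -0.20, near that of all genes. The 30 of them with at least 10.0 CPM in both cell types had 8 negative and 3 positive members. Among all genes of that level 21.7% were negative and 23.5% positive. Over the same libraries mitochondrial transcripts made up 0.614% ± 0.102 of counts in mESC chromatin and 0.0371% ± 0.0058 in mESC cytoplasm, and 1.44% ± 0.15 and 2.52% ± 0.11 in mCtx (SD, n = 3). Their share was thus higher in mCtx in both fractions, by far more in cytoplasm, so that their ratio of chromatin to cytoplasm moved the same way as that of these groups. The part of fraction purity in these results was not tested.

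The mitochondrially encoded mRNAs themselves, which are made and translated inside the organelle, were negative in 7 of 11 and positive in none (median -4.61, background 24.9% and 15.7%). The 4 uncalled members had 3 or fewer counts in both fractions of a cell type. The most abundant, mt-Co1, a subunit of cytochrome oxidase, stood at 3491, 2602 and 2472 CPM in mESC chromatin and 238, 178 and 151 CPM in mESC cytoplasm. Its mCtx chromatin mean was 4616 ± 465 CPM and its mCtx cytoplasm mean 10460 ± 332 CPM (SD, n = 3). It lay on the chromatin side in every mESC pair and on the cytoplasm side in every mCtx pair, with a shift of -5.10 ± 0.33 (SE; adjusted p = 2.6e-12). The shift of mt-Cytb, a subunit of complex III, was -4.66 ± 0.33. For mt-Nd6 it was -5.23 ± 0.49, and mt-Nd6 overlaps mt-Nd5 on the other strand.

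Neuronal membrane genes were largely negative as well. Axon guidance ligands and receptors had 35 negative members of 46 and none positive (median -1.56, background 24.9% and 15.7%), although in log2(TPM + 1) 10 were negative and 4 positive. Efnb3, an ephrin ligand, stood at 16.9, 23.4 and 22.9 CPM in mESC chromatin and 2.80, 2.99 and 4.14 CPM in mESC cytoplasm. In mCtx it stood at 150, 166 and 152 CPM in chromatin and at 285, 310 and 330 CPM in cytoplasm. It rose in both fractions without overlap and went from the chromatin side to the cytoplasm side, with a shift of -3.65 ± 0.26 (SE; adjusted p = 2.0e-11). L1cam, an adhesion molecule of axons that overlaps Arhgap4 on its strand, had -1.5 ± 0.44, and -0.21 in log2(TPM + 1), where it was not called.

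Synaptic receptors and ion channels were negative in 23 of 49 and positive in 2 (median -1.81, background 24.9% and 15.7%). Many are near 0 in mESC, and 5 of the 49 had 3 or fewer counts in both fractions of a cell type. In log2(TPM + 1) the median was 0.0089 and the counts were 8 negative and 13 positive, so the direction of the list depends on how low levels are treated. Gria2, the most abundant member, held no count in mESC cytoplasm and gives no shift. The positive members were Grik3, a kainate receptor that overlaps the pseudogene Ftl2-ps on its strand and whose value of 1.47 ± 0.39 turned to -1.04 in log2(TPM + 1), and Nlgn1, a neuroligin, at 2.33 ± 0.44, named after its value was seen. Nlgn1 did not reach 10.0 CPM in a fraction of both cell types.

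Synaptic vesicle and SNARE genes were negative in 21 of 41 and positive in 3 (median -1.39, background 24.9% and 15.7%). The median was -0.69 in log2(TPM + 1), with 18 negative and 5 positive, and -0.80 over the 29 members with 1 CPM in each of the 4 groups, of which 13 were negative. Unc13b, a priming factor of vesicle release, was the largest exception. It rose in chromatin from 105, 91.3 and 97.1 CPM in mESC to 363, 342 and 367 CPM in mCtx and stood in cytoplasm at 42.4, 44.0 and 51.7 CPM in mESC and 25.2, 25.2 and 28.7 CPM in mCtx. The mCtx libraries were above mESC in chromatin and below it in cytoplasm, the latter by less than a call needs, and the shift was 2.67 ± 0.18 (SE; adjusted p = 6.3e-12). The others were Nsf, the ATPase that takes SNARE complexes apart, at 1.48 ± 0.20, and Vamp3, a SNARE of endosomes, at 1.30 ± 0.20, named after their values were seen.

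Genes of the neuronal cytoskeleton and growth cone were called in both directions, with 15 of 47 positive and 12 negative (median 0.43). The negative share was near the background of 24.9%, and the positive share was above the background of 15.7%. Kif1a, a kinesin that carries synaptic vesicle precursors, had 2.97 ± 0.63, and its mESC levels varied from 5.59 to 26.2 CPM in chromatin and from 9.61 to 51.3 CPM in cytoplasm. Sptbn1, a spectrin of the membrane skeleton, had -2.44 ± 0.22. Tuba1a, the main tubulin of young neurons, had 1.24 ± 0.42, with ratios that overlapped between the cell types and a value of 0.87 to 0.98 and no call with library totals, without the first mESC chromatin library or without the second mESC cytoplasm library.

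Neuronal splicing regulators were negative in 11 of 28 and positive in 2 (median -0.53, background 24.9% and 15.7%), with 5 negative in log2(TPM + 1). Nova1, a neuronal RNA-binding protein, stood in chromatin at 19.5, 23.5 and 23.7 CPM in mESC and 20.8, 19.5 and 22.5 CPM in mCtx. Its cytoplasm level rose from 2.87, 1.86 and 2.91 CPM to 20.1, 15.1 and 17.4 CPM. Only the cytoplasm ranges were apart, and the shift was -2.87 ± 0.27 (SE; adjusted p = 2.2e-09), or -0.98 and not called in log2(TPM + 1). Rbfox2, the most abundant, had 0.39 ± 0.21 and was not called (adjusted p = 0.13). With the fractions paired by replicate number in the same test its adjusted p was 0.020, with a shift still below the size needed for a call. Beside Ptbp1 the positive member was Srrm3, a partner in the splicing of microexons, at 1.44 ± 0.32, named after its value was seen. Srrm3 did not reach 10.0 CPM in a fraction of both cell types.

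Of 1119 genes of long noncoding classes, gathered after their values had been seen, 395 had a negative shift and 20 a positive one, with a median of -1.74 (background 24.9% and 15.7%). In log2(TPM + 1) 316 of 1026 were negative and 87 positive, with a median of -0.53. Their median log2 ratio was 2.13 in mESC and 0.29 in mCtx. Of 12 nuclear long noncoding RNAs listed 7 were negative and none positive (median -1.69), and 5 were negative without both mESC libraries numbered 1. Malat1, the abundant RNA of nuclear speckles, was named after its values were seen. It stood at 1828, 1232 and 1476 CPM in mESC chromatin and 18.9, 19.7 and 21.4 CPM in mESC cytoplasm. In mCtx it stood at 819, 734 and 820.2 CPM in chromatin and 200.1, 150.1 and 179 CPM in cytoplasm. It was lower in chromatin and higher in cytoplasm of mCtx without overlap, stayed on the chromatin side with log2 ratios of 6.24 and 2.17, and had a shift of -4.07 ± 0.30 (SE; adjusted p = 2.9e-11). Between mESC and mNPC its shift was -0.11, and between mNPC and mCtx it was -3.97.

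Hosts of small nucleolar RNAs, whose exons are spliced together around the intron-encoded RNAs, were negative in 6 of 7 (median -1.89, background 24.9%). Gas5 stood at 233, 454 and 424 CPM in mESC chromatin and 21.3, 15.4 and 14.6 CPM in mESC cytoplasm. In mCtx it stood at 326, 324 and 329 CPM in chromatin and 158, 160.3 and 141 CPM in cytoplasm. The chromatin ranges overlapped, the cytoplasm ranges did not, and the shift was -3.35 ± 0.25 (SE; adjusted p = 4.1e-11). In transcript-based log2(TPM + 1) it was -0.94 and 2 of the 7 hosts were called. Small nucleolar RNA genes lie inside Gas5 on its strand, and how reads over both were counted is not known. Of 254 loci of small nucleolar RNA genes, gathered after their values had been seen, 152 were negative and 1 positive (background 24.9% and 15.7%). The same limit holds for those that lie inside host genes. Only polyadenylated RNA over 200 nt was kept, so these are reads at the loci. Whether any came from the mature small RNAs was not tested. Most of the loci were at low levels: 14 reached 10.0 CPM in a fraction of both cell types, of which 12 were negative. In log2(TPM + 1) 59 of 156 were negative and 8 positive.

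Immediate early genes had no common direction, with 5 of 45 positive and 6 negative (median -0.15). The background shares are again 15.7% and 24.9%. Nr4a1, an activity-induced nuclear receptor, had a shift of 2.22 ± 0.42 and Homer1, a postsynaptic scaffold with a short induced form, -2.27 ± 0.33. Mcl1, the most abundant, had -0.04 ± 0.22 and was not called. The other positive members were Sik1 (1.81), Zfp36l2 (1.38), Arc (1.37) and Maff (1.03), named after their values were seen.

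Markers of single cell types give a fold only where both cell types express them. Of 32 cortical neuron markers 15 were negative and 1 positive (median -1.11), and in log2(TPM + 1) 11 and 2 (median -0.41). Mapt, which encodes tau, had -2.26 ± 0.33, and Tubb3, a neuronal tubulin that overlaps Gm20388 on its strand, was the positive one at 1.68 ± 0.35. Of 37 pluripotency markers 6 were positive and 2 negative, or 16 and 7 in log2(TPM + 1), and 19 had 3 or fewer counts in both fractions of a cell type. In counts the positive share was near the background of 15.7%, and the negative share was below the background of 24.9%. Dnmt3b, a DNA methyltransferase, had 3.63 ± 0.46 and Tet1, a methylcytosine dioxygenase, -1.63 ± 0.29. The other negative member was Lefty2, a Nodal antagonist named after its value was seen, which was under 0.1 CPM in mCtx chromatin and is given no size. Slc1a3, the glial glutamate transporter among the progenitor markers, stood at 57.5, 90.8 and 97.6 CPM in mESC chromatin and 3.61, 7.40 and 6.93 CPM in mESC cytoplasm. In mCtx it stood at 167, 162 and 166 CPM in chromatin and 284, 276 and 273 CPM in cytoplasm, a shift of -4.52 ± 0.28 (SE; adjusted p = 1.5e-12) with no overlap of groups.

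Among markers of other cell types that the cultures could hold, 6 of 14 for microglia were negative (background 24.9%) and none positive, with a median of -2.96. The count was 4 without both mESC libraries numbered 1 and 9 of 13 in log2(TPM + 1), and 5 of the 14 had 3 or fewer counts in both fractions of a cell type. Gja1, a gap junction protein of astrocytes, had -3.67 ± 0.29 and Aldh1l1, an astrocyte enzyme, 1.87 ± 0.48. Nes, the intermediate filament nestin of progenitors, had 1.87 ± 0.41 and Gad1, the GABA-synthesising enzyme, -1.64 ± 0.27. Acta2, a smooth muscle actin, had -2.86 ± 0.90 with overlapping ratios. Cx3cr1, a microglial receptor gene that overlaps Gorasp1 and Csrnp1 on its strand, is uncertain, with 0.68 ± 0.24 in counts -0.84 in log2(TPM + 1) and -3.06 in log2(TPM + 0.1). Sst and Fabp7 had 3 or fewer counts in a fraction or in both fractions of mESC and give no shift.

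From mESC to mNPC 1878 genes (10.3%) had a positive and 3226 (17.7%) a negative shift, and from mNPC to mCtx 1400 (7.68%) and 2072 (11.4%). The median of the spliceosome list was 0.78 in the first step and 0.49 in the second, and that of the chromatin modifiers 0.72 and 0.18. Axon guidance genes had -1.09 and -0.82, and transcripts with PTBP1-repressed splicing -0.91 and -1.63. Mov10 was called in both steps, at 2.78 and 3.43. Anxa6 and Pfkl were called in the second step alone, at 3.31 and 3.12, against 0.61 and 0.70 in the first; no test of the difference between the steps was run.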

How the data were processed

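The first deposited table holds read counts per gene for the nucleoplasm, cytoplasm and chromatin libraries, per the file headers; the chromatin columns are recorded as other whole-number values deposited by the authors and were analysed as the read counts they are. The authors' second table holds TPM per gene, per the file headers. STAR, featureCounts, kallisto 0.43.0 and mm10 are named in the submitters' processing notes, with counting options and annotation release not given in the sources used here. Gene length in the count table equals the start-to-end distance for all 37332 genes. Symbols and exon numbers come from GENCODE M21.

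One edgeR 4.0.16 quasi-likelihood fit (R 4.3.3) of all 27 libraries, with TMM scaling, a mean per group and filterByExpr (18226 genes kept), gave 7 contrasts. SE is the log2 difference over the square root of F. CPM uses TMM-scaled library sizes. The counts were also fitted with DESeq2 1.42.0, and log2(TPM + 1) and log2(TPM + 0.1) with limma 3.58.1. The fit was tested on simulated counts first.

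Named genes were the 12 largest called shifts in each direction (at least 10.0 CPM in a fraction of both cell types, ratios not overlapping, no other tested gene overlapping on the strand, no predicted symbol), the most abundant and most shifted members of each of 31 lists (968 of 1000 members tested), the study genes, the PTBP1 list and the 5 largest opposite calls in each direction. Members and lists were chosen with earlier results of these data known. A few genes named by the rule are left out of the text. Deviations from the group means correlated at 0.233 to 0.721 in all 6 same-numbered chromatin and cytoplasm pairs of mESC and mCtx, so the labels' replicate numbers pair these fractions. P-values come from the fit without this pairing, unless the replicate block is named. They measure the spread between 3 biological replicates per group, estimated together over all 27 libraries.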

Additional observations from a re-analysis of the deposited data

Results flagged for a closer look

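The shift is itself a difference between the cell types in the same contrast, so each called gene is such a difference. Singled out here are the 617 genes with opposite calls in mESC and mCtx and the 10 genes with the largest shifts among them that met the naming rule. On the positive side, from cytoplasm in mESC to chromatin in mCtx, these were Mov10 (6.21), Crabp2 (5.59), Amt (4.08), Anxa6 (3.92) and Pfkl (3.82). On the negative side they were Lmbrd2 (-5.89), Alg10b (-5.66), Ids (-5.27), mt-Co1 (-5.10) and Impad1 (-5.06). All 10 kept their call and direction in each of the 25 alternatives in which they were tested.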

How the results depend on the processing

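Leaving out each of the 12 libraries in turn gave 2687 to 3076 positive and 4312 to 4828 negative shifts and 581 to 708 opposite calls. The replicate block (cell type by replicate number, a pairing of the fractions) gave 2953 positive and 4763 negative shifts, kept 7328 of 7399 calls (99.0%) and changed the call of no named gene; it was not run for the contrasts of a single fraction between cell types, whose blocks are nested in the cell types. DESeq2 kept 97.4% of the calls, library totals 90.7% and log2(TPM + 1) 62.8%, with 66 called in the opposite direction. Negative shifts numbered 2838 of 10989 genes with at least 1 CPM in each of the 4 groups, where fewer genes were tested. Opposite calls were 331 there, 172 in log2(TPM + 1), 357 in log2(TPM + 0.1) and 2036 without a minimum fold change. Genes lower in chromatin were 2485 in mESC with library totals, 1817 in mESC and 1820 in mCtx in log2(TPM + 1), and 2046 and 2159 in log2(TPM + 0.1). Directions turned for Grik3 (-1.04 and -1.32 in the TPM fits) and Cx3cr1 (-0.84 in log2(TPM + 1), -3.06 in log2(TPM + 0.1)). They turned for the medians of synaptic receptors (0.0089 in log2(TPM + 1)), astrocyte markers (0.42 at 1 CPM in 4 groups, 0.0018 in log2(TPM + 1)), neural progenitor markers (0.16 at 1 CPM in 4 groups, 0.081 and 0.006 in the TPM fits), fibroblast and mural markers (0.028 over 2 genes at 1 CPM in 4 groups), Slc25 genes (0.027 in log2(TPM + 0.1)) and primitive endoderm markers (-0.12 in log2(TPM + 1)). The cause of these changes was not tested. List counts without both mESC libraries numbered 1 were an alternative chosen after seeing the data. The leave-one-out fits of Tuba1a and Calr are given with those genes. Low counts in mESC limit the neuronal and marker lists.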
